A study of Mus musculus with 16 samples.

Results

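The mRNAs of the cytosolic ribosomal proteins were followed in mouse blood-forming cells after transcription was blocked. They were taken by gene symbol and number 84 of the 55414 genes counted, with 32 proteins of the small and 52 of the large ribosomal subunit. Of these, 82 passed the filter on low counts; Rpl10l and Rpl39l, with 19 and 22 counts in all 16 libraries, did not. The symbol rule leaves out genes such as Rps3a1, Fau, Rpl36al and Rack1, which encode cytosolic ribosomal proteins under other names, and takes in little-counted genes such as Rpl3l, Rpl6l, Rpl32l and Rps4l.

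The 16 libraries held 2 genotypes, WT and Nat10-deficient per the labels (Nat10-/- in the titles), at 0, 1, 3 and 5 h after 5 µM actinomycin D, an inhibitor of transcription, with 2 libraries a group. Lineage-depleted bone marrow of both genotypes was cultured in StemSpan medium with 10 ng/mL stem cell factor, 20 ng/mL thrombopoietin and heparin, and long-term haematopoietic stem cells were then sorted. The titles instead name 32D cells, a mouse myeloid progenitor line, and neither the allele nor the number of cells per sample is stated in the labels. Equal amounts of ERCC spike-in RNA went into each RNA sample before Smart-seq2 library construction.

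A ribosome carries a single copy of almost every ribosomal protein, so cells make these proteins in matched amounts. Their mRNAs are short, abundant and known as long-lived, and most begin with a 5′ terminal oligopyrimidine (TOP) tract, a C followed by further pyrimidines, through which mTORC1 and Larp1 control their translation. Nat10 is an RNA cytidine acetyltransferase that also acts in ribosome assembly.

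The annotated start sites of some members carry this tract in the reference genome. RefSeq promoter windows (GRCm38.p6) matched 62 of the 84 members. The annotated start was a C followed by at least 4 pyrimidines in 14 of them (22.6%), in 3.01% of 27025 genes of all kinds and in 0 of 69 mitochondrial ribosomal protein genes. The stretches below are shown because these members return in the results; each runs from 10 bases before the start to 20 bases from it, and capitals mark the pyrimidine run from the start base.
Rps6 (chr4:86857348-86857377, minus strand): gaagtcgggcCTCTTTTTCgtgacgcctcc
Rps27 (chr3:90213629-90213658, minus strand): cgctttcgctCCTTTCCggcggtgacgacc
Rps18 (chr17:33955646-33955675, minus strand): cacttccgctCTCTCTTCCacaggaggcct
Rps10 (chr17:27635225-27635254, minus strand): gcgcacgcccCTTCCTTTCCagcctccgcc
Rplp2 (chr7:141447641-141447670, plus strand): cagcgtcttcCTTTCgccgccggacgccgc
Rps27l (chr9:66946076-66946105, plus strand): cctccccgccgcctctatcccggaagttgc
Rpl22l1 (chr3:28805498-28805527, plus strand): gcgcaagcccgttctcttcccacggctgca
Rps27l, for which a second start is also listed, and Rpl22l1 are paralogues of Rps27 and Rpl22, and neither has the run at its annotated start. The letters CTTTC, chosen after the windows had been seen and searched within 50 bases of the start on the gene's strand, were in 51.6% of the 62 members and 14.6% of all genes, and the reverse complement GAAAG was in 11.3% and 13.8%. Annotated starts can lie some bases from the start in use, so these shares describe the reference and not the transcripts in the cells.

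Facts of the whole series bear on every value below. A library held 9142413 to 17274128 counts in total, of which 3819 to 384621 were ERCC counts. Nat10 mRNA did not follow the labels: the WT libraries had 71.8 and 71.0 CPM (counts scaled to library size, with TMM factors) at 0 h, then 78.2 and 83.8, 46.5 and 39.5, and 38.5 and 35.2 CPM, and the other genotype had 88.3 and 91.3, then 72.3 and 76.5, 98.3 and 100.6, and 137 and 151 CPM. Only at 1 h was the level below WT, so the second genotype is called Nat10-deficient-labelled throughout, and a count over the whole gene does not test a partial deletion. In all 8 groups both files name the same alignment in their headers and differed little beyond counting noise (chi-square per degree of freedom 1.32 to 2.44 over members, against 47.9 to 256 between neighbouring times over all genes), so p-values measure only the spread between files, which may be technical. Immunoglobulin genes took 3.92, 27.9, 55.1 and 66.5% of gene counts in WT and 6.98, 9.80, 27.4 and 4.32% in the Nat10-deficient-labelled libraries over the 4 times. All 12 LT-HSC markers were counted in every group, at a summed 2915 CPM in WT at 0 h and 521 at 5 h, and 1174 and 332 CPM in the Nat10-deficient-labelled libraries. The summed 12 plasma and B cell markers ranged from 34860 to 557500 CPM in WT, with Mzb1 at 0 in WT at 0 h, and from 37010 to 235200 CPM in the other genotype. Other marker lists shifted as well. Group means of summed neutrophil and monocyte markers ranged from 3661 to 6861 CPM in WT and from 10580 to 19760 CPM in the other genotype. Those of erythroid markers ranged from 1643 to 4420 and from 4754 to 14580 CPM. Those of mast cell and basophil markers ranged from 121 to 1092 and from 362 to 4034 CPM. The part of these shifts in the results on ribosomal protein mRNAs was not tested. Values without immunoglobulin genes are given for the shares and for some of the intervals.

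Counted levels of the members spread widely, although a ribosome needs almost all of them in equal number. Averaged over the 16 libraries, Rplp0, the P-stalk scaffold, stood at 2933 CPM per kb of mRNA, followed by Rps2 at 2605, Rpl4 at 2547, Rps9 at 2252, Rps6, the S6 kinase substrate, at 2123, Rpl10 at 1921, Rpl32 at 1626, Rps14 at 1577, Rpl6 at 1425 and Rpl15 at 1399. The low end held Rps10 at 5.08, Rps4l at 4.49, Rpl24 at 2.56, Rpl32l at 1.61 and Rpl3l, a paralogue of Rpl3 known from striated muscle, at 0.297 CPM per kb. Rps10 and Rpl24 are obligatory parts of the ribosome, and how far such values measure the mRNA present was not tested. The authors' counting left out fragments that map to several places, and 80 of the 82 tested members share at least one 50-base stretch with an annotated pseudogene transcript, with a median of 8 such pseudogenes and a highest of 121. Across members, Spearman's rho of the level per kb was -0.23 with the percentage of the mRNA's 50-base windows found nowhere else in the transcripts, -0.03 with the share of exon bases overlapped by another gene, and 0.12 with mRNA length. These 3 relations are descriptions across genes that share libraries. The 24 tested members with under 25% of windows found nowhere else had a median of 359 CPM per kb. The 12 with at least 75% had a median of 103. What sets the differences between members in level was not tested. These differences are uncertain, and the results below compare each member with itself.

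**Figure D1:**
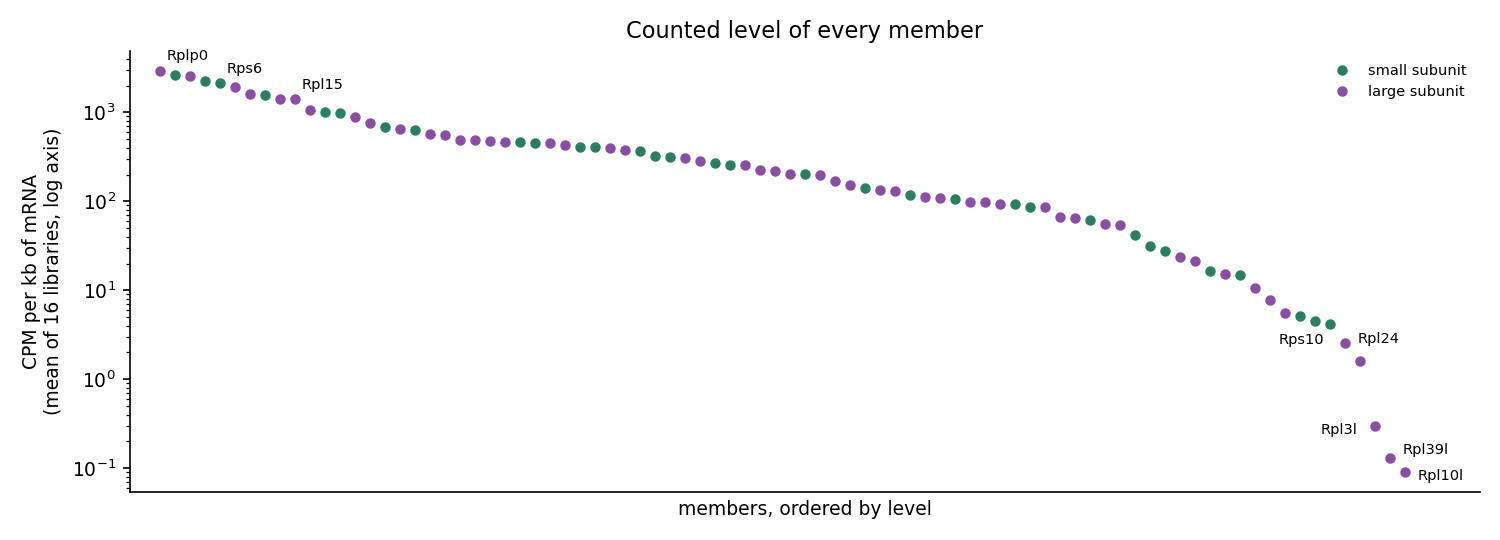
Counted level of each member in CPM per kb of mRNA (log axis, mean of 16 libraries), ordered from high to low and coloured by subunit, with some members named. Levels run from 2933 for Rplp0 to under 1 for Rpl3l, Rpl39l and Rpl10l.

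Ribosomal protein mRNAs made up 3.82% ± 0.035 (SD, n = 2) of gene counts in WT at 0 h, then 2.96% ± 0.025, 2.01% ± 0.011 and 2.01% at 1, 3 and 5 h. The Nat10-deficient-labelled share was 3.87%, 4.35%, 3.98% and 6.54% in the same order, with SDs of at most 0.012. The 2 genotypes lay close at 0 h and apart from 1 h on. Without immunoglobulin genes the fall in WT turned into a rise, from 3.98% to 4.11, 4.47 and 6.01%, beside 4.16, 4.83, 5.48 and 6.83% in the Nat10-deficient-labelled libraries. Set against the spike-ins, ribosomal protein counts per ERCC count went from 2.08 ± 0.019 to 0.988, 0.877 and 0.779 in WT and from 173 ± 2.6 to 74.3, 62.2 and 51.7 in the other genotype. The WT libraries thus held far fewer counts per ERCC count at each time. In bulk samples fewer cells and less RNA per cell cannot be told apart, and cells per sample are not given, so ERCC-scaled differences between the genotypes are given only beside that of the median gene.

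**Figure D2:**
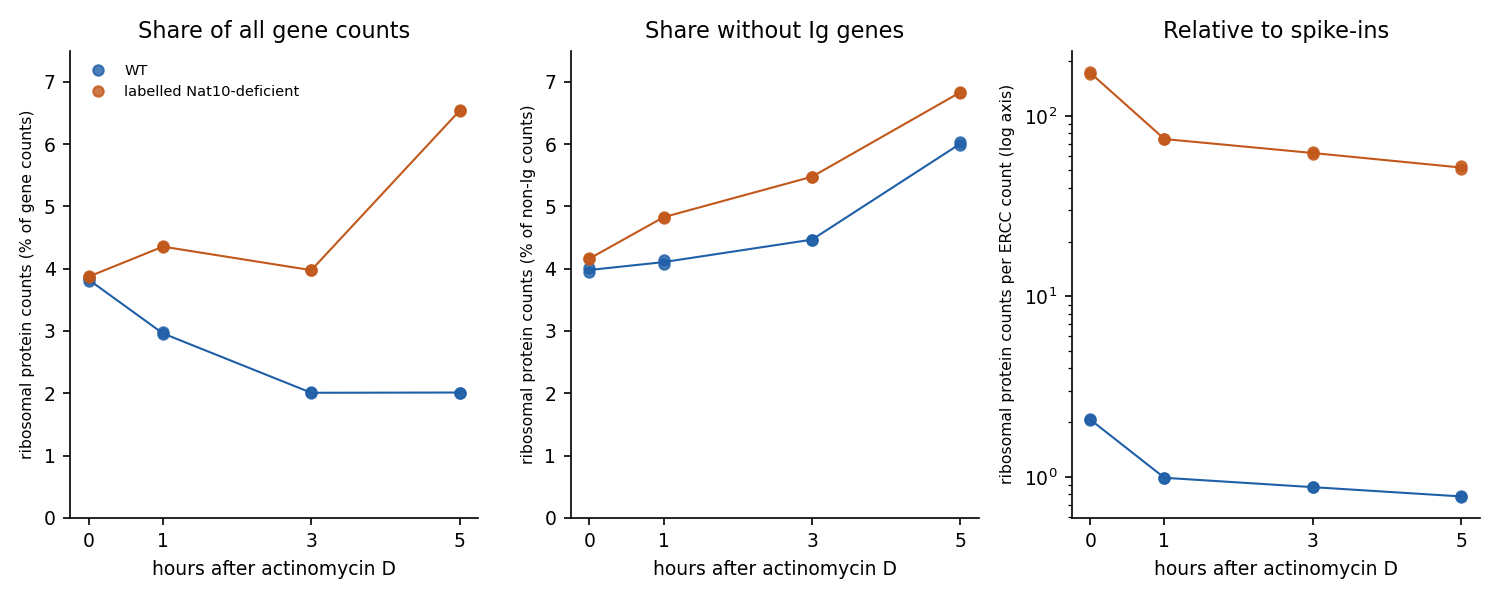
Summed counts of the 84 members in each library against hours after actinomycin D: as a share of gene counts, as a share without immunoglobulin (Ig) genes, and per ERCC count on a log axis. Points are libraries and lines join group means; the WT share falls from 3.82 to 2.01% with Ig genes and rises from 3.98 to 6.01% without them.

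The first question the time course puts is how these mRNAs fell against the spike-ins. In the median, members fell more in the first hour than from 1 to 5 h, and many kept falling after it. Cells per sample are not given for any time. On this scale a loss of mRNA and a lower input of cells thus cannot be told apart. In WT, Rplp0 had 196 and 204 counts per 1000 ERCC counts before the drug, then 97.7 and 99.0 (1 h), 102 and 105.1 (3 h), and 100.05 and 100.6 (5 h). Its level at 5 h lay between those of 1 and 3 h. Rplp1, a P-stalk protein, did the same, with 26.8 and 26.7, 12.6 and 12.7, 12.6 and 13.2, and 12.8 and 12.9. Rps6 kept falling, from 123 and 122 to 59.8 and 58.8, 46.0 and 46.0, and 36.8 and 36.2. Rpl22l1, the paralogue of Rpl22, fell further, from 2.83 and 2.80 to 1.09 and 1.21, 0.718 and 0.679, and 0.523 and 0.610.

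In the Nat10-deficient-labelled libraries, Rplp0 went from 16518 and 16718 counts per 1000 ERCC counts to 7499 and 7468 (1 h), 7105 and 6974 (3 h), and 5614 and 5913 (5 h). Here each time lay below the time before it, unlike in WT. Rps6 went from 9129 and 9246 to 3950 and 3874, 3173 and 3111, and 2370 and 2448. For the 72 members with a mean of at least 3 on the log2 CPM scale, the median ratio of 1 h to 0 h was 0.455 in WT, near the 0.469 of 9113 genes with a mean of at least 100 counts, and 0.425 beside 0.387 in the other genotype. The ratio of 5 h to 1 h had a median of 0.757 over members and 0.385 over those genes in WT, and 0.650 and 0.374 in the Nat10-deficient-labelled libraries. All 72 members lay above the median gene in both genotypes over 1 to 5 h. In WT it ranged from 0.459 for Rpl30 to 1.15 for Rpsa, the laminin-receptor protein of the small subunit, and in the other genotype from 0.456 for Rps18 to 1.03 for Rps12. These ratios use group sums and were added after the data were seen.

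Slopes over 0 to 5 h, in log2 per hour on the ERCC scale, were tested for every gene with edgeR's quasi-likelihood test and Benjamini-Hochberg adjustment. Members fell on this scale, but their median slopes were above 0 with TMM scaling (0.13 in WT and 0.16 in the other genotype) and with scaling on a list of long-lived mRNAs (0.0096 and 0.022). In WT, 81 of 82 members had a slope below 0 that passed the test, where 57.4% of all 25081 tested genes did (11.1% passed above 0, no member), with a median of -0.26 against -0.36 for all genes. In the Nat10-deficient-labelled libraries, 81 of 82 passed, against 71.3% of all genes (3.14% above 0, no member), with a median of -0.33 against -0.48. The exception in both was Rpl3l. With one model fitted to the sum of each group's files, so that the spread came from the scatter around a straight line, 12 members passed below 0 in WT and 50 in the other genotype, where 28.6% and 37.3% of all genes did. The share of members was thus below that of all genes in WT in this fit. Members lay above the median gene by 0.10 (ERCC), 0.15 (TMM) and 0.14 (long-lived mRNAs) log2 per h in WT. In the Nat10-deficient-labelled libraries these distances were 0.15, 0.16 and 0.15. A change of scale shifts the genes of a library alike, so agreement between scales in such a distance is largely built in.

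The slowest falling in WT were Rpl10, which joins the large subunit late, at -0.14 ± 0.0062 (SE), Rpl41 at -0.14 ± 0.0085, Rplp0 at -0.15 ± 0.0057 and Rplp1 at -0.16 ± 0.0072 log2 per h on the ERCC scale. In the Nat10-deficient-labelled libraries the same 4 had slopes of -0.27, -0.31, -0.25 and -0.24. Among members of mean log2 CPM of at least 3, the steepest in WT were Rpl22l1 at -0.42 ± 0.018, Rpl30 at -0.41 ± 0.034 and Rpl22 at -0.36 ± 0.010, with adjusted p of at most 1.14e-32 for Rpl30. The steepest in the other genotype were Rps15 at -0.46 ± 0.026, Rpl30 at -0.44 ± 0.028 and Rps18 at -0.41 ± 0.016. Over those 72 members the slopes of the 2 genotypes, which share no library, went together with Pearson's r of 0.65 and Spearman's rho of 0.64. The 14 members with and 46 tested members without the pyrimidine run at the annotated start had medians of -0.26 and -0.26 in WT. In the Nat10-deficient-labelled libraries these were -0.34 and -0.33. Annotated starts can lie some bases from the start in use, so this split cannot compare mRNAs with and without a TOP tract.

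**Figure D3:**
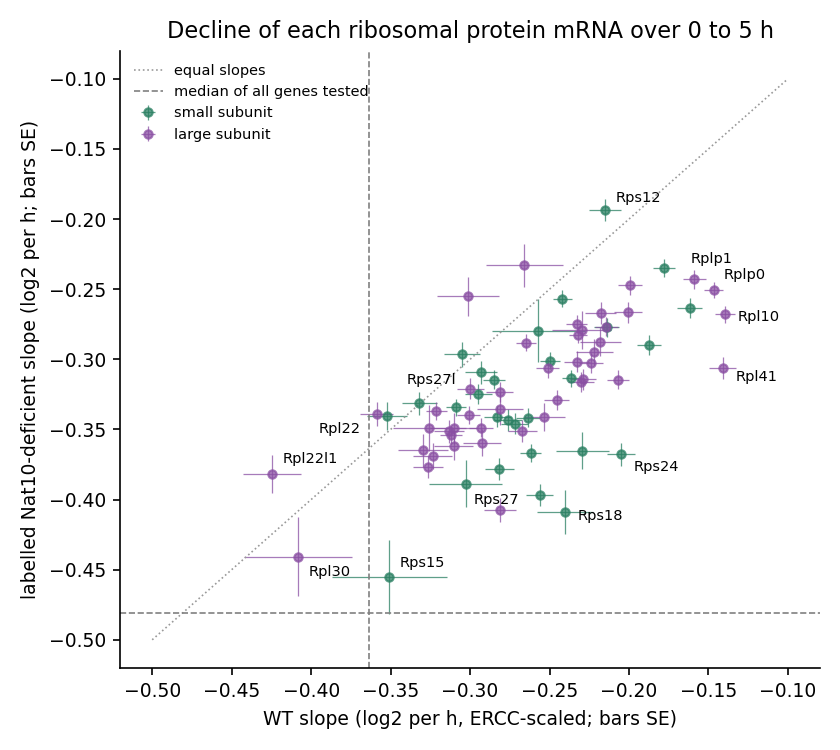
Slope of each of the 72 more abundant members in WT (x) and in the Nat10-deficient-labelled libraries (y), in log2 per h over 0 to 5 h on the ERCC scale, with standard errors; dashed lines are the medians of all tested genes (-0.36 and -0.48). Most members lie right of and above these lines and below the line of equal slopes; on the TMM scale the medians of both axes are above 0.

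The difference between the slopes was tested as an interaction. It was below 0, a steeper fall in the Nat10-deficient-labelled libraries, for 54 of 82 members and above 0 for none, where 32.1% of all genes passed below 0 and 15.7% above. Their median difference was -0.058 log2 per h, beside -0.096 for all genes. The largest differences were those of Rps18 (-0.17 ± 0.024, adjusted p = 1.45e-11), Rpl41 (-0.17 ± 0.011), Rps24, a small-subunit protein mutated in some Diamond-Blackfan anaemia families (-0.16 ± 0.012), and Rps27 (-0.14 ± 0.012, adjusted p = 2.61e-33). Other scales turned the sign. On the TMM scale the median was 0.037 over members and 0.017 over all genes, with 42 members above 0 and 6 below (24.5% and 24.3% of all genes). On the long-lived-mRNA scale it was 0.019 over members and -0.0039 over all genes, with 30 and 12 (22.8% and 25.7%). The members' median thus lay above that of all genes on all 3 scales, an agreement that is largely built in. No member passed with files of each group summed (edgeR; 0 members at an unadjusted p under 0.05, 175 genes called, 0.634% of all genes below 0).

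The second question is how the genotypes differed at each time. Members were mostly higher in the Nat10-deficient-labelled libraries on the TMM scale. Scaling on long-lived mRNAs instead turned their median differences to -0.17, -0.081, -0.13 and -0.051. With that scaling 52, 37, 41 and 34 members were lower at 0, 1, 3 and 5 h and 6, 15, 5 and 25 higher. Of all genes 40.8, 51.3, 59.2 and 38.7% were lower and 20.3, 15.8, 11.6 and 23.7% higher. ERCC scaling put the median gene itself 6.24, 5.64, 5.19 and 5.62 higher in that genotype at 0, 1, 3 and 5 h. On the TMM scale, at 0 h 68 members were higher in Nat10-deficient-labelled libraries and 1 was lower, where 35.6% and 24.2% of all genes were, with median log2 differences of 0.26 over members and 0.10 over all genes. At 1 h, 74 were higher and 2 lower (32.4% and 31.8% of all genes), with medians of 0.55 and 0. At 3 h, 72 were higher and 1 lower (30.4% and 37.1%), with medians of 0.69 and -0.068. At 5 h, 68 were higher and 4 lower (34.1% and 30.1%), with medians of 0.46 and 0.099. Leaving out WT replicate 1 at 5 h moved that last member median to 0.69 and the 4 lower calls to 0, and leaving out replicate 2 moved those calls to 2. Relative to the median gene the members stayed higher at 1 and 3 h on the TMM, ERCC and long-lived-mRNA scales, by 0.55, 0.64 and 0.41 and by 0.76, 0.96 and 0.76. At 0 and 5 h they did so on the first and second scale only, with -0.014 and -0.046 on the third. As for the slopes, agreement between scales in such distances is largely built in.

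At 0 h the 3 largest differences among the more abundant members were in large-subunit mRNAs, followed by the small-subunit paralogue Rps27l. Rpl13a, a protein of the large subunit also known for an extraribosomal role in translational silencing, stood at 15.4 and 12.9 CPM in WT and 22.9 and 24.1 CPM in the Nat10-deficient-labelled libraries (log2 difference 0.73 ± 0.096, adjusted p = 1.71e-13). It was apart at each later time as well, with 11.4 and 10.4 against 25.9 and 29.0 CPM (1 h), 8.76 and 7.53 against 28.4 and 29.5 CPM (3 h), and 25.5 and 21.3 against 61.4 and 61.6 CPM (5 h). The log2 differences at 1, 3 and 5 h were 1.33 ± 0.11, 1.83 ± 0.14 and 1.38 ± 0.11. Other genes overlap 35.4% of the exon bases of Rpl13a, and 42.6% of its mRNA windows were found nowhere else. The ratio of its counts per ERCC count at 5 h to those at 3 h was 1.43 in WT and 1.19 in the other genotype. How far the Rpl13a values measure its mRNA was not tested. Rpl29 (0.66 ± 0.028) and Rpl27 (0.64 ± 0.047, adjusted p = 3.92e-40) came next at 0 h. Rpl29 differed by 0.98 ± 0.032 at 3 h and Rpl27 by 0.96 ± 0.059 at 5 h.

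Other members joined the largest differences at later times. Rpsa stood at 500 ± 11 CPM (SD, n = 2) in WT and 603 ± 7.3 CPM in the other genotype at 0 h. At 1 h these were 354 ± 6.5 and 669 ± 7.6 CPM, a log2 difference of 0.92 ± 0.026. Rps27a, which is made as a fusion with ubiquitin, differed by 1.07 ± 0.029 at 3 h. Rplp2, a P-stalk protein, differed by 0.89 ± 0.038 at 1 h and Rpl31 by 1.04 ± 0.093 at 5 h. Lower calls were few and included Rps27 at 0 h, Rpl30 at 1 h (-0.36 ± 0.16, adjusted p = 0.0404), Rpl3l at 3 h, and Rps18 (-0.41 ± 0.093), Rps27 (-0.35 ± 0.038) and Rps24 (-0.22 ± 0.039) at 5 h. Several of these calls ended without 1 library. Without WT replicate 1 at 5 h the 3 values at that time were -0.12, -0.097 and -0.013, none passing (adjusted p of 0.462, 0.0939 and 0.926), and without WT replicate 2 Rps27 was at -0.21 and Rps24 at -0.044 (adjusted p = 0.484). Rpl30 at 1 h no longer passed in 4 of the 16 fits that left out 1 library, namely replicate 2 of either genotype at 1 h (-0.21 without that of the Nat10-deficient-labelled libraries) and either WT library at 5 h. Within WT, Rpl3l had counts at 3 h only, at 1.99 ± 0.61 CPM. It had counts in every Nat10-deficient-labelled library, and 73 counts over both genotypes.

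**Figure D4:**
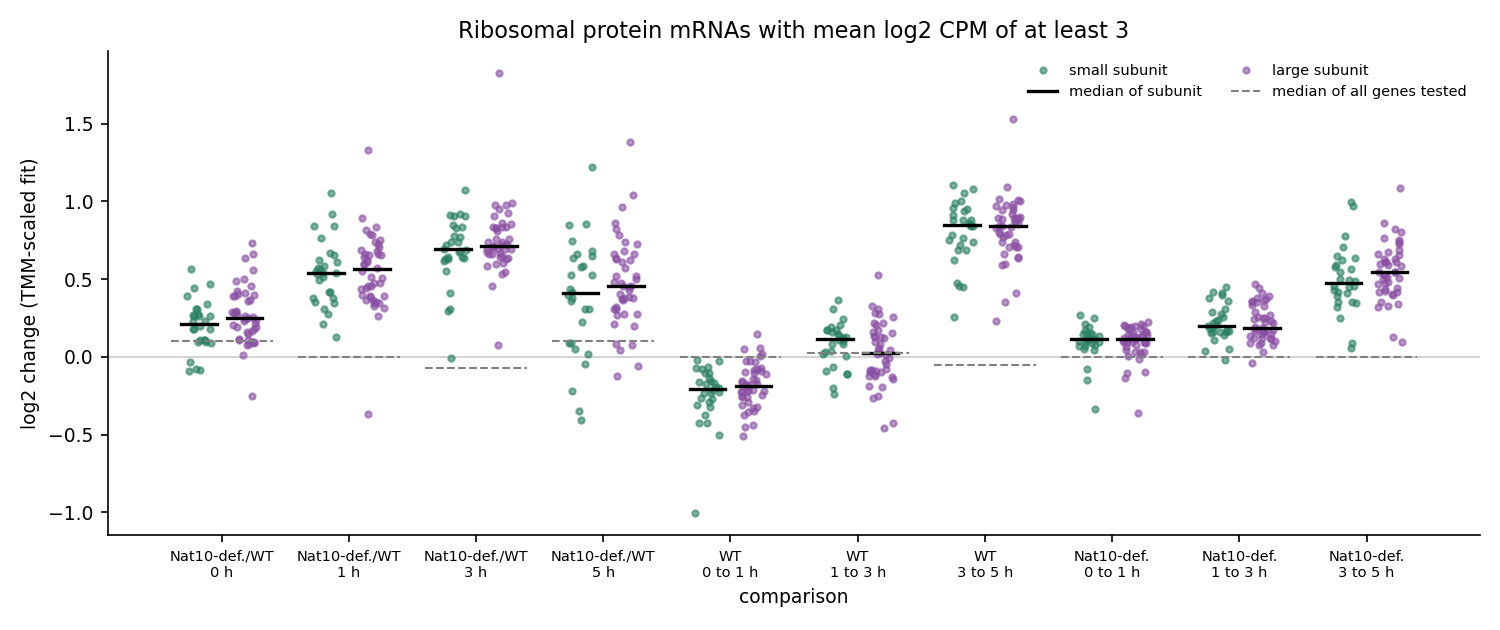
Log2 change of the 72 more abundant members in each comparison on the TMM scale, by subunit, with subunit medians (black) and the median of all tested genes (dashed). Members lie mostly above the dashed line in the 4 comparisons of genotypes, where long-lived-mRNA scaling turns the medians below 0, and between 3 and 5 h, where ERCC scaling does.

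Changes between neighbouring times show when members and other mRNAs parted. On the TMM scale, 59 members were lower and 1 higher at 1 h than at 0 h in WT (31.7% and 29.8% of all genes; member median -0.18, all genes 0), 32 were higher and 16 lower from 1 to 3 h (36.1% and 30.7%; 0.085 and 0.023), and 75 were higher and 2 lower from 3 to 5 h (27.9% and 35.2%; 0.84 and -0.053). In the Nat10-deficient-labelled libraries, 50 were higher and 7 lower from 0 to 1 h (23.2% and 26.7%; 0.11 and 0), 63 and 3 from 1 to 3 h (27.7% and 28%; 0.20 and 0), and 75 and 1 from 3 to 5 h (30.6% and 32.1%; 0.53 and 0). On the ERCC scale every one of these 6 medians was below 0, at -1.13, -0.17 and -0.18 in WT and -1.24, -0.34 and -0.30 in the other genotype. Over all genes the medians were -0.83, -0.062 and -1.06 in WT and -1.33, -0.48 and -0.76 in the other genotype. The members thus lay below the median of all 25081 tested genes on this scale from 0 to 1 h and 1 to 3 h in WT. From 1 to 3 h in WT they lay 0.062 above it on the TMM scale and 0.042 above it on the long-lived-mRNA scale. The result also depended on the genes compared. Against the 9113 genes with a mean of at least 100 counts, 68 of the 72 more abundant members lay above the median in that interval. The median ratios per ERCC count were 0.882 over those members and 0.708 over those genes. From 3 to 5 h in WT the members stood above the median tested gene by 0.89 (TMM), 0.88 (ERCC) and 0.89 (long-lived mRNAs). In the Nat10-deficient-labelled libraries these distances were 0.53, 0.46 and 0.45. Their agreement between scales is largely built in. The smaller medians moved with single libraries: from 1 to 3 h in WT to 0.013 without replicate 2 at 1 h and to 0.055 without replicate 1 at 3 h, where the 16 lower calls became 10 without replicate 2 at 3 h. Leaving out either WT library at 5 h moved the median from 0 to 1 h to -0.11 in WT, with 4 members higher, and to 0.20 in the Nat10-deficient-labelled libraries, where it was 0.075 without replicate 2 at 1 h. DESeq2 called 60 members higher from 1 to 3 h in WT and a fit without the filter 21. Without immunoglobulin genes, 27 were higher and 20 lower in that interval (36.9% and 30% of all genes). The medians were then 0.058 over members and 0.059 over all genes. From 0 to 1 h in the Nat10-deficient-labelled libraries, 58 were then higher and 5 lower (23.2% and 24.5%). From 0 to 1 h in the Nat10-deficient-labelled libraries the 50 higher calls became 29 without replicate 2 at 0 h, 33 without replicate 1 at 0 h and 31 without replicate 2 at 1 h.

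Single members carried these steps unequally. Rps15, a small-subunit protein near the decoding centre, went from 9.16 ± 0.48 CPM (SD, n = 2) at 0 h to 4.51 ± 0.60 at 1 h in WT (-1.003 ± 0.18 log2, SE, adjusted p = 5.54e-08) and from 10.4 ± 0.57 to 8.19 ± 1.6 CPM in the Nat10-deficient-labelled libraries (-0.34 ± 0.14). Rpl22, Rpsa and Rpl31 changed by -0.51, -0.50 and -0.45 in the same WT hour, and Rpl10 was the 1 member called higher, by 0.15. From 1 to 3 h in WT, Rpl41 changed by 0.53, Rpsa by 0.37, Rplp0 by 0.33 and Rps18 by 0.31, and Rpl22l1, Rpl13a and Rpl26 by -0.46, -0.42 and -0.27. From 3 to 5 h in WT the largest rises on the TMM scale were those of Rpl13a (1.53 ± 0.17), Rpsa (1.10 ± 0.029), Rpl27a (1.09 ± 0.043) and Rps28 (1.08 ± 0.10). In the Nat10-deficient-labelled libraries, Rpl30 changed by -0.36 from 0 to 1 h, Rps27l, Rps20, Rpl13a and Rpl10 by 0.27, 0.25, 0.22 and 0.21, then Rpl10, Rps23 and Rplp0 by 0.47, 0.45 and 0.44 from 1 to 3 h, and Rpl13a, Rps12, Rps2 and Rpl29 by 1.09, 1.00, 0.97 and 0.86 from 3 to 5 h. All values in these sentences passed the test, but some calls ended when 1 library was left out. From 1 to 3 h in WT these were Rpl13a and Rpl26 (without replicate 1 at 1 h), Rpl26 (replicate 1 at 3 h), and Rpl13a and Rps18 (replicate 2 at 3 h). From 0 to 1 h in the Nat10-deficient-labelled libraries they were Rpl13a, Rps15 and Rpl30 (replicate 1 at 0 h), Rpl13a and Rpl30 (replicate 2 at 0 h, and replicate 2 at 1 h, with 0.12 and -0.23), Rps15 (replicate 1 at 1 h, with -0.16), and Rps15 and Rpl30 (either WT library at 5 h). Rps15 was at -0.58 without replicate 2 at 1 h and Rpl30 at -0.54 without replicate 1. Rps10 fell from 7.21 and 7.52 CPM to 1.35 and 1.33 CPM within the first hour in WT and from 10.7 and 9.20 to 6.71 and 5.39 CPM in the Nat10-deficient-labelled libraries, on 1243 counts in all libraries.

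Paralogues are given beside their partners, and the difference between partners was not tested. Rps27l, a paralogue of Rps27 known as a p53 target, stood at 88.6 and 92.2 CPM in WT and at 137 and 129 CPM in the other genotype before the drug. It then stood at 77.6 and 77.1 against 162 and 160 CPM (1 h), 91.4 and 86.5 against 156 and 161 CPM (3 h), and 106 and 108 against 255 and 241 CPM (5 h). The log2 differences of Rps27l were 0.56 ± 0.042, 1.05 ± 0.045, 0.83 ± 0.052 and 1.22 ± 0.050. Rps27 itself was at 198 and 199 against 188 and 185 CPM at 0 h and at 334 and 310 against 246 and 261 CPM at 5 h. Its log2 differences were -0.089 ± 0.034 (adjusted p = 0.0162), 0.21 ± 0.036, 0.41 ± 0.041 and -0.35 ± 0.038, of opposite sign to those of Rps27l at 0 and 5 h on the TMM scale. The call at 0 h ended in 14 of the 16 fits that left out 1 library (-0.057 without WT replicate 2 at 0 h; adjusted p of the ended calls from 0.0511 to 0.279), and that at 5 h without WT replicate 1 at 5 h (-0.097). On the ERCC scale Rps27 was at 6.05 and 5.30 at 0 and 5 h, below the 6.24 and 5.62 of the median gene. On the long-lived-mRNA scale Rps27 was lower at 1 and 3 h as well (-0.42 and -0.42). Of the mRNA windows described for levels, 1.4% were found nowhere else in the transcripts for Rps27 and 77.6% for Rps27l. Fragments that map to several places were left out of the counts. How far this shaped the Rps27 values, and so the contrast with Rps27l, was not tested. On the ERCC scale the slopes of Rps27l were -0.33 in both genotypes (difference 0.0 ± 0.012, adjusted p = 1) and those of Rps27 were -0.26 in WT and -0.40 in the Nat10-deficient-labelled libraries.

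Rpl22 and Rpl22l1, of which the first is known to repress the second, were both higher in the Nat10-deficient-labelled libraries at 1, 3 and 5 h on the TMM scale, while with scaling on long-lived mRNAs Rpl22l1 was below 0 at 1 h (-0.055) and Rpl22 at 3 h (-0.12), each without its partner. Rpl22 stood at 124 and 120 against 131 and 131 CPM at 0 h and at 131 and 123 against 223 and 228 CPM at 5 h, with log2 differences of 0.099 ± 0.040, 0.73 ± 0.044, 0.71 ± 0.051 and 0.82 ± 0.049 at 0, 1, 3 and 5 h. Rpl22l1 stood at 36.7 and 35.0 against 37.3 and 38.4 CPM at 0 h and at 31.2 and 35.8 against 57.2 and 57.8 CPM at 5 h. Its differences were 0.078 ± 0.072 (adjusted p = 0.362, not passing the test), 0.57 ± 0.079, 0.99 ± 0.10 and 0.79 ± 0.094. At 0 h both were below 0 with DESeq2 (-0.0019 and -0.023) and on the long-lived-mRNA scale (-0.33 and -0.35), and Rpl22 did not pass without Nat10-deficient-labelled replicate 1 or WT replicate 2 at 0 h (adjusted p of 0.0567 to 0.0766). Rps4l and Rpl3l were little counted beside Rps4x and Rpl3 (2.69 beside 259 CPM and 0 beside 541 CPM in WT at 0 h, levels not corrected for length). Rpl39 was at 3.26 CPM and Rpl36a at 71.5 CPM in the same libraries.

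**Figure D5:**
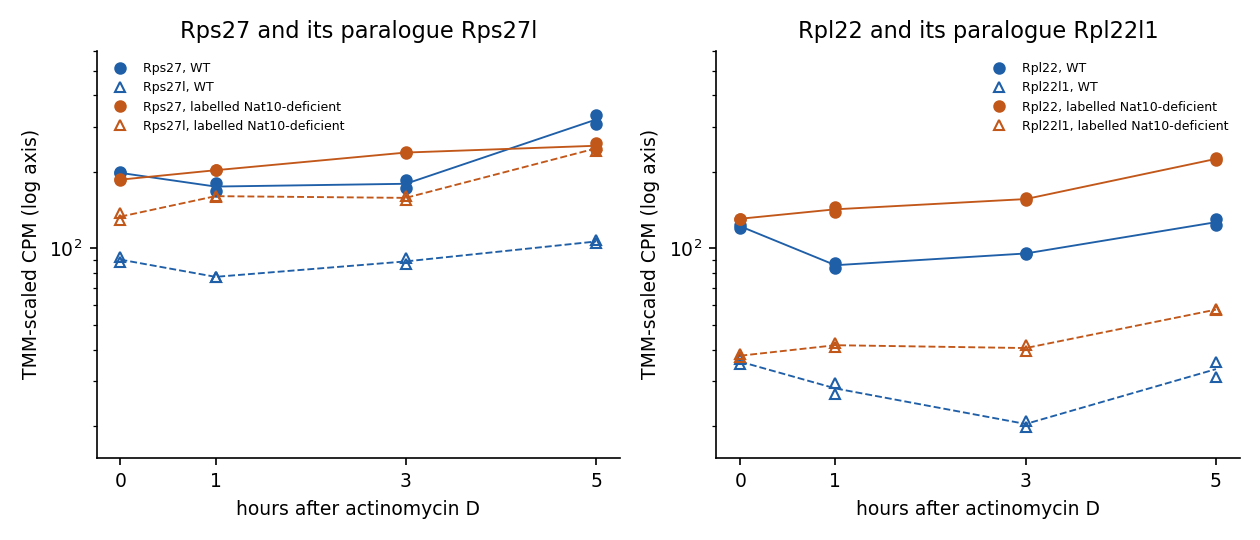
TMM-scaled CPM (log axis) of Rps27 and Rps27l (left) and of Rpl22 and Rpl22l1 (right) against hours after actinomycin D. Points are libraries and lines join group means; Rps27l is higher in all Nat10-deficient-labelled libraries than in WT at the same time, while Rps27 is lower in them at 0 and 5 h on this scale.

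Rps14, Rps19, Rpl5 and Rpl11, known from ribosomopathies and p53 surveillance, had lower group means at each later time against the spike-ins. Rps10, another Diamond-Blackfan anaemia gene, had no lower mean at 3 h than at 1 h in WT, with 0.0546 and 0.0549, then 0.0414 and 0.0781 counts per 1000 ERCC counts. Counts per 1000 ERCC counts of Rps14, lost in the 5q- syndrome, went from 65.5 and 63.0 at 0 h to 21.6 and 21.7 at 5 h in WT and from 4349 and 4517 to 1023 and 1074 in the Nat10-deficient-labelled libraries. Rps19, the first Diamond-Blackfan anaemia gene, went from 13.8 and 13.005 to 4.46 and 4.13 and from 1008 and 1034 to 224 and 233. Rpl5 and Rpl11, which hold back Mdm2 together, went from 16.3 and 15.9 to 5.27 and 5.15 and from 26.5 and 27.4 to 9.45 and 9.40 in WT. In the other genotype they went from 1470 and 1469 to 392 and 415 and from 2244 and 2255 to 640 and 671.

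Small- and large-subunit members had close medians in the tests on each. Summed counts of small-subunit members per large-subunit count were 0.681 ± 0.0026 (SD, n = 2), 0.643 ± 0.0048, 0.634 ± 0.0094 and 0.610 ± 0.0006 at 0, 1, 3 and 5 h in WT and 0.665 ± 0.0039, 0.660 ± 0.0039, 0.624 ± 0.0026 and 0.645 ± 0.0030 in the Nat10-deficient-labelled libraries. In WT the ratio of sums was lowest at 5 h and in the other genotype at 3 h. The difference between the subunits' median log2 CPM did not follow the sums: it was 0.343 and 0.325 at 5 h beside 0.330 and 0.293 at 0 h in WT, which overlap, and in the other genotype it was highest at 3 h, at 0.197 and 0.193. The median slopes of the 32 small- and 50 large-subunit members were -0.26 and -0.27 log2 per h in WT and -0.34 and -0.32 in the Nat10-deficient-labelled libraries. Median genotype differences on the TMM scale were 0.25, 0.54, 0.69 and 0.41 for the small subunit and 0.28, 0.56, 0.70 and 0.48 for the large one over the 4 times, where scaling on long-lived mRNAs gave the family as a whole medians below 0. At 5 h on the TMM scale, 23 of 32 small-subunit members were higher and 3 lower. Of 50 large-subunit members, 45 were higher and 1 lower (34.1% and 30.1% of all genes). The lower quartiles at 5 h were 0.086 (small) and 0.31 (large).

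Other genes of the translation machinery give the setting, from lists drawn up with earlier results of these data known. The 77 tested mitochondrial ribosomal protein mRNAs are made for the separate ribosome of mitochondria. They fell on the ERCC scale with a median slope of -0.39 in WT and -0.38 in the Nat10-deficient-labelled libraries. All 77 passed below 0 in both, where 57.4% and 71.3% of all genes did. The slope difference of these 77 on the ERCC scale was split, with 24 above 0 and 22 below. Cytosolic members had 0 above and 54 below, where 15.7% and 32.1% of all genes were. The median of cytosolic members still lay 0.039 above that of all genes. On the TMM scale 42 cytosolic members were above 0 and 6 below. Ribosome assembly factors fell by a median of 0.45 log2 per h in both genotypes, with all 40 passing. The 19 translation elongation and initiation factors, several of which are TOP mRNAs, had medians of -0.28 and -0.33, close to the members, with Eef1a1 at -0.23 and -0.30. Among ribosomal proteins outside the symbol rule, Rps3a1 had slopes of -0.26 and -0.30, Fau of -0.16 and -0.32 and Rack1 of -0.29 and -0.26. Larp1, which binds TOP mRNAs, had slopes of -0.63 and -0.41 log2 per h and a genotype difference of 1.96 at 5 h on the TMM scale.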

How the data were processed

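The deposited values are counts of fragments, whole numbers for each gene. The authors used featureCounts 1.6.3 over exons by gene identifier, unstranded, with pairs counted once, per the file headers; fragments with several alignments or several genes were left out by that command's defaults. STAR, DESeq2 and the GRCm39 build appear in the submitters' processing notes. Rows were 55414 genes and 92 ERCC spike-ins; 52081 identifiers (94.0%) were given symbols from a GENCODE table.

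Counts were fitted in edgeR 4.0.16 (R 4.3.3; quasi-likelihood, robust, 1 mean for each of 8 groups) over the 25081 genes kept by filterByExpr, with TMM factors for genotypes and intervals and ERCC library sizes for slopes, a linear contrast over 0, 1, 3 and 5 h. P-values were adjusted by Benjamini-Hochberg over all genes, with a threshold of 0.05. Errors of log2 values are standard errors, the log2 value over the square root of F; errors of CPM and shares are SDs of 2 libraries. CPM are TMM-scaled, and marker sums use library totals. Intervals and SDs cover counting error at best, since reads carry no molecular identifiers. The scripts were tested on simulated counts. Long-lived-mRNA scaling used 38 reference genes of other functions.

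Members and lists were chosen with earlier results of these data known. Named in each comparison were the 4 members with the largest passing change in each direction among those of mean log2 CPM of at least 3, the paralogues and their partners, and a fixed set of well-known members, some of which are not reported here; the values of Rps10, the list of slowest-falling members, the ratios between times and the CTTTC motif were chosen after values were seen. mRNA length and uniqueness came from GENCODE M21 transcripts (GRCm38), with the transcript choice revised once after a first look. Alternatives were DESeq2 1.42.0, no filter, ERCC, TMM or long-lived-mRNA scaling, no immunoglobulin genes, a replicate block, summed files and leaving out each library. Replicate numbers did not pair the samples: of 28 correlations between same-numbered libraries' deviations, 0 exceeded 0.1 (-0.003 to 0.035).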

Additional observations from a re-analysis of the deposited data

Results flagged for a closer look

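The difference between the genotypes' slopes was called for 54 of 82 ribosomal protein mRNAs, all of them steeper in the Nat10-deficient-labelled libraries on the ERCC scale (edgeR interaction), where 32.1% of all genes were. TMM scaling gave 6 members below 0 and 42 above, long-lived-mRNA scaling 12 and 30, and summed files called 0 members (edgeR; 0 at an unadjusted p under 0.05). The largest among the more abundant members were Rps18 at -0.168, Rpl41 at -0.165, Rps24 at -0.163 and Rps27 at -0.141 log2 per h. ERCC counts were 3819 to 19021 in the Nat10-deficient-labelled libraries and 204836 to 384621 in WT, and their part in these differences was not tested.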

How the results depend on the processing

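Results are counts of members passing in the main direction, or medians and single members in log2. With a replicate block the counts were 69, 74, 72 and 68 for genotypes, 59, 32, 75, 51, 63 and 75 for intervals and 81, 81 and 57 for slopes, all within 1.5 times of the counts without it; the shared numbers do not pair the samples. Leaving out 1 library gave 62 to 71, 72 to 75, 70 to 72 and 63 to 72 members for genotypes, 46 to 60, 22 to 36 and 67 to 75 for WT intervals, 29 to 64, 54 to 63 and 72 to 76 for the other genotype's, 80 to 81, 81 to 81 and 52 to 58 for slopes, 3.50 to 3.81% for the mean share (3.69%) and -0.638 to -0.627 for the log2 ratio of small to large sums (-0.633). That ratio was 0.243 when taken as the difference of median log2 CPM, and the share was 4.98% without immunoglobulin genes.

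Long-lived-mRNA scaling left 6, 15, 5 and 25 members higher for genotypes (20.3, 15.8, 11.6 and 23.7% of all genes), with medians of -0.165, -0.0810, -0.134 and -0.0513. With it 52, 37, 41 and 34 were lower (40.8, 51.3, 59.2 and 38.7%). In WT it left 20 lower from 0 to 1 h (24.8%) and 36 higher from 3 to 5 h (11.2%). In the other genotype it left 18 higher from 1 to 3 h (20.1%, median -0.0493) and 44 from 3 to 5 h (19.8%). For slopes it left 24, 16 and 12 below 0 (42.8, 49.2 and 25.7%), with medians of 0.00955, 0.0222 and 0.0188. It turned genotype values of Rpl22 to -0.330 and -0.117 (0 and 3 h), Rpl22l1 to -0.351 and -0.0554 (0 and 1 h) and Rps27 to -0.417 and -0.419 (1 and 3 h), WT slopes of Rplp0, Rplp1, Rpl10, Rpl41 and Rps27 to 0.127, 0.115, 0.134, 0.133 and 0.0179, and the other genotype's slopes of Rplp0, Rplp1, Rpl10, Rpl41, Rps6, Rps27l and Rpl22 to 0.0986, 0.106, 0.0810, 0.0427, 0.0146, 0.0177 and 0.01003.

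TMM scaling left 2, 3 and 6 members below 0 for slopes (31.2, 31.9 and 24.3% of all genes), with medians of 0.130, 0.161 and 0.0370. WT slopes of Rplp0, Rplp1, Rpl10, Rpl41, Rps6, Rps27, Rps27l and Rpl22 became 0.247, 0.235, 0.255, 0.253, 0.0854, 0.138, 0.0620 and 0.0354, and the other genotype's of Rplp0, Rplp1, Rpl10, Rpl41, Rps6, Rps27, Rps27l, Rpl22, Rpl22l1, Rps15, Rpl30 and Rps18 became 0.237, 0.244, 0.219, 0.181, 0.153, 0.0903, 0.156, 0.149, 0.106, 0.0322, 0.0465 and 0.0786.

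ERCC scaling left 5 and 2 members higher from 1 to 3 and 3 to 5 h in WT (30.2 and 7.86% of all genes, medians -0.166 and -0.181). In the other genotype's intervals it left 0, 0 and 4 higher (4.51, 15.3 and 10.9%, medians -1.24, -0.337 and -0.303). It turned Rpl10 to -0.794 (WT 0 to 1 h), Rps27l, Rps20, Rpl13a and Rpl10 to -1.08, -1.10, -1.13 and -1.13 (Nat10-deficient 0 to 1 h), Rpl10, Rps23 and Rplp0 to -0.0610, -0.0800 and -0.0883 (1 to 3 h), and, with the median gene at 6.24, 5.64 and 5.62 at 0, 1 and 5 h, genotype values of Rps27 to 6.05 and 5.30 (0 and 5 h), Rpl30 to 5.37 (1 h) and Rps18 and Rps24 to 5.24 and 5.43 (5 h).

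From 1 to 3 h in WT, DESeq2 called 60 members higher and a fit without the filter 21; at 0 h DESeq2 gave -0.00191 for Rpl22 and -0.0226 for Rpl22l1. Summed files, with fewer samples, gave 0 members at 0 h (edgeR; 0 genes, 6 members and 1376 genes at an unadjusted p under 0.05, Rps27 at 0.151), 12 and 50 for slopes and 0 for their difference. Apart from these constructions, the cause of each change was not tested. Depth limits Rps10, Rpl24 and the paralogues under 1300 counts in all.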
